A study of Mus musculus with 8 samples.

Results

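*Depp1*, a gene that FOXO transcription factors switch on, was followed in 8 HM-1 tumours. It was 1 of 11667 genes with a single gene symbol among the probe sets deposited. It was measured by 1 probe set, and no probe set shared between several genes carried its name. The gene was chosen by the difference of its log2 expression between the treatments on these same arrays. Its own difference is therefore described here with no test.

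HM-1 is 1 mouse ovarian cancer line, and its cells were placed under the skin of the right flank of B6C3F1 mice, which have an intact immune system. The control group was 4 tumours of mice given rat IgG isotype control, and the other group was 4 tumours of mice given an antibody against VEGF, the main growth signal of blood vessels. Per the labels both were given into the abdomen 2 times a week from day 3 after the cells, while the methods name a later start, and tumours were taken at a long diameter of 1.5 cm. Ages of the mice and the day of collection were not given in the sources used here. RNA came from whole tumours, so that a higher level can stand for more cells of a type or more RNA per cell, which cannot be told apart. The keratin genes *Krt8*, *Krt18* and *Krt19* lay at or above the 98.0th percentile of genes on each array, and the adhesion gene *Epcam* at or below the 43.5th, in tumours of a line labelled as ovarian cancer. *Msln* and *Cdh1*, looked up with them, lay at percentile 88.7 to 96.4 and 58.4 to 76.5. All these values were looked up after the data were seen.

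FOXO factors are transcription factors that insulin and growth factor signals keep out of the nucleus. Those signals run through PI3K and AKT, and AKT marks FOXO proteins so that 14-3-3 proteins hold them in the cytoplasm. When the signal falls, in starved or stressed cells, FOXO proteins enter the nucleus and raise genes that halt division, remove peroxide, feed autophagy or start cell death. *Depp1* is one of them and was described early as a transcript that progesterone raised in human decidual cells of the uterus. Its protein has been placed at mitochondria and peroxisomes, and it has been tied to peroxide handling and autophagy in human tumour cells. The transcript is also known from endothelial cells of growing vessels, from fat tissue and from cells in low oxygen. The lists below follow these roles.

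The sequence before the start of the gene is shown with a search for forkhead sites, since *Depp1* is labelled a FOXO target. RefSeq places these 250 bases at chr6:116650434-116650683 on the plus strand of GRCm38.p6. The capitals mark the letters GTAAATA, a variant of the forkhead site GTAAACA.
Depp1 upstream region: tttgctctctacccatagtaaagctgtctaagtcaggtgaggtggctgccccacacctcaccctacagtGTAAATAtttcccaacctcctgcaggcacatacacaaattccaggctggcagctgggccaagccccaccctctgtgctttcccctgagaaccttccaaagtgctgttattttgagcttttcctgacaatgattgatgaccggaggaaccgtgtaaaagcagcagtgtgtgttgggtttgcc
The match began at position -181 from the start of the gene. On either strand GTAAATA was found in 2.73% of 32851 upstream regions of this length, and its letters were chosen after the sequence had been read. The letters GTAAACA (in 3.17% of upstream regions), ACGTG, the core that HIF factors bind (16.6%), and TGTTCT, a core of steroid receptor sites (16.1%), did not occur in this window on either strand. Of 24 other FOXO-induced genes with such a sequence, 0 had GTAAATA, 1 had GTAAACA, 8 had ACGTG and 3 had TGTTCT.

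*Depp1* was higher on every anti-VEGF array than on every control array. Its log2 expression was 5.97 on control 1, 5.17 on control 2, 3.81 on control 3 and 6.73 on control 4. On anti-VEGF 1 to 4 it was 7.75, 7.94, 8.50 and 7.81. The groups did not overlap, and the lowest anti-VEGF array, the first, stood 1.01 above the highest control array, the fourth. From the lowest level the order was control 3, 2, 1 and 4 and then anti-VEGF 1, 4, 2 and 3. The mean was 5.42 ± 1.25 (SD, n = 4) in control tumours and 7.998 ± 0.34 (SD, n = 4) under anti-VEGF antibody. The log2 difference was 2.58 with a standard error of 0.65 from the spread of the groups, which is a 5.97-fold higher level.
The spread lay mainly among the control tumours. Their values covered 2.93 on the log2 scale and those of the anti-VEGF tumours 0.75. The control standard deviation of *Depp1* was the 59th largest of 11667 genes, where the median gene had 0.40. That of the anti-VEGF tumours was the 747th largest, with a median gene at 0.15. Neighbours in the order within a group stood closer than 1 standard deviation of their group, except control 3 and 2, which were 1.36 apart, and anti-VEGF 2 and 3, which were 0.56 apart. Without control 3 the log2 difference was 2.04 (4.11-fold) and the control standard deviation 0.78. Without control 4 the difference was 3.02 (8.09-fold).

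The place of *Depp1* among all genes of an array is free of the centre and width of that array, though not of trends with level. Counted from the lowest gene, it stood at percentile 73.0, 56.5, 9.62 and 85.3 on control 1 to 4. On anti-VEGF 1 to 4 it stood at percentile 91.5, 92.5, 95.1 and 91.4. As deposited it was among the dim genes of control 3 and above most genes of control 4, and its place was nearly the same on the 4 anti-VEGF arrays. After cyclic loess its percentile on control 3 was 48.8.

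**Figure D1:**
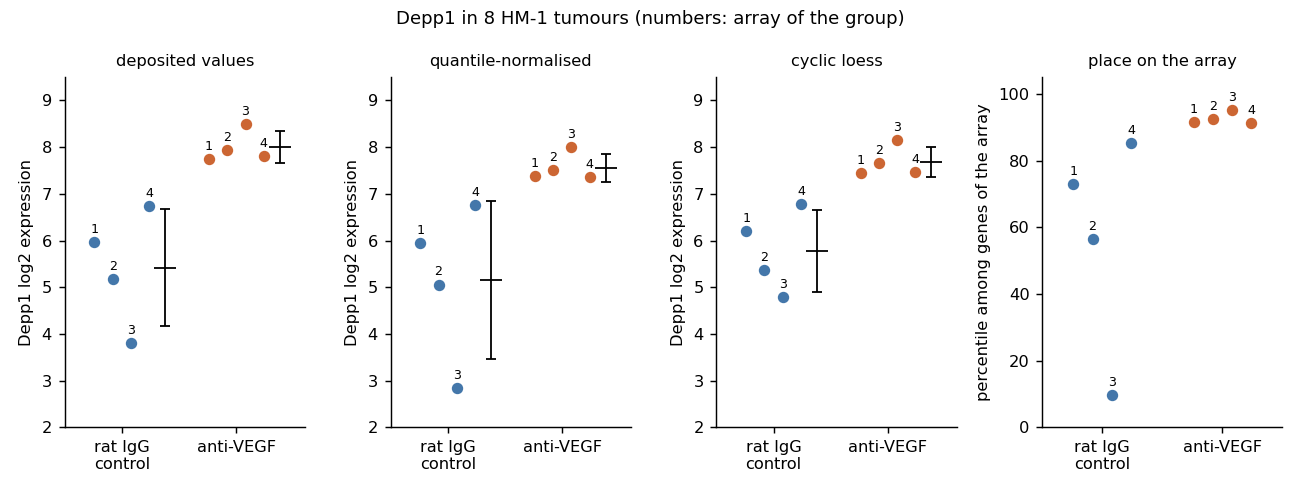
Log2 expression of Depp1 on each array as deposited, after quantile normalisation and after cyclic loess (first 3 panels, with the group mean and SD as bars), and its percentile among the genes of its array (last panel). Each point is 1 tumour, and in all panels the 4 anti-VEGF arrays lie above the 4 control arrays, with control 3 lowest.

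The arrays differed in scale in the same order as the groups, and *Depp1* belonged to the brighter genes. The standard deviation over all genes was 1.12 on control 3, 1.43 to 1.66 on the other control arrays and 1.99 to 2.08 on the anti-VEGF arrays. Genes that were bright over all arrays were measured higher with anti-VEGF antibody and dim genes lower. The mean level of *Depp1* over 8 arrays, 6.71, lay in the ninth of 10 level bins. The median log2 difference of the 1167 genes of that bin was 0.72, and 5% of them lay above 1.65, against 2.58 for *Depp1*. The bins take in the anti-VEGF arrays, so a gene that rose is placed higher by its rise. The control mean of *Depp1*, 5.42, lay within the range of the seventh bin, which had a median difference of -0.049. Bins by control level alone were not made. Over all genes *Depp1* had the 8th largest difference. After quantile normalisation, which gives every array the same distribution, its difference was 2.41 (5.31-fold), the median of its bin 0.12, and its rank again 8th. After cyclic loess, which evens out trends with level between arrays, it was 1.90 (3.73-fold) and ranked 14th. In all of these settings the groups stayed apart, by 0.59 after quantile normalisation and by 0.68 after cyclic loess. The control standard deviation was 1.69 and 0.88 in these settings. The part of the difference in scale in the difference of *Depp1* was otherwise not tested.

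**Figure D2:**
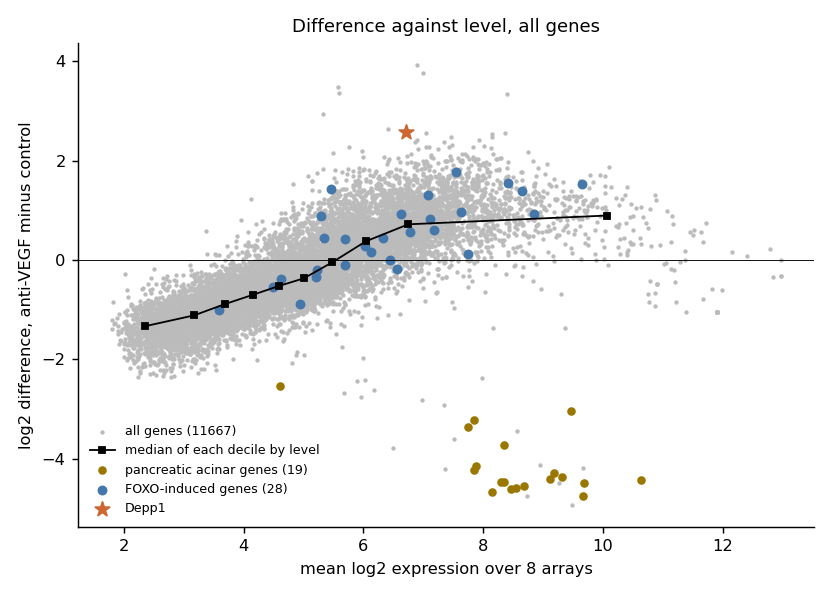
Log2 difference between anti-VEGF and control means against the mean log2 expression over 8 arrays, for 11667 genes (grey), with the median of each of 10 level bins (black squares), 28 FOXO-induced genes (blue), 19 pancreatic acinar genes (brown) and Depp1 (star). Depp1, at a level of 6.71 and a difference of 2.58, lies above the median of its bin, 0.72, and the acinar genes lie far below.

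The gene lies inside another gene, whose values did not follow it. In RefSeq *Depp1* is placed within *Rassf4*, which encodes a RAS-binding adaptor protein and runs on the opposite strand. Whether the array reads the strands apart is not given in the sources used here. *Rassf4* had a log2 expression of 5.18, 6.24, 5.44 and 5.79 on control 1 to 4, and of 5.91, 5.91, 6.17 and 5.86 on anti-VEGF 1 to 4. Its groups overlapped, and its highest value was that of control 2, where *Depp1* was low. The log2 difference was 0.30 (standard error 0.23, adjusted p = 0.254 from limma).
The other measured genes nearest on the chromosome were taken 2 more to the left and 3 to the right. *Tmem72*, which encodes a membrane protein, fell by 0.52 on the log2 scale (adjusted p = 0.0198 from limma). *Cxcl12*, a chemokine gene, fell by 0.44 (adjusted p = 0.0322), and the olfactory receptor gene *Olfr215* fell by 1.80 (adjusted p = 0.00121). After quantile normalisation *Cxcl12* had -0.0053 (adjusted p = 0.985), *Tmem72* had 0.11 (0.583) and *Olfr215* -0.83 (0.0563). *Hnrnpf*, which encodes an RNA-binding protein, had 0.61 (adjusted p = 0.0566) and, with the sign turned, -0.22 after quantile normalisation. *Olfr214* had -0.35 (adjusted p = 0.199), and 0.58 after quantile normalisation.

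Other genes that FOXO factors induce rose in 46.4% of those measured, a share between that of all genes and that of bright genes. Of 60 such genes written down, 28 were measured. With anti-VEGF antibody 13 of these rose, 2 fell and 13 did not pass an adjusted p of 0.05 from limma, and the median log2 difference was 0.44. Of all genes 19.1% rose and 46.6% fell, with a median of -0.44. In the brightest tertile, which held 19 of the 28, 51.3% rose and 4.55% fell. Tertiles here and below are by the mean over all 8 arrays, so genes that rose are placed brighter by their rise.
*Cdkn1b*, which encodes the cell cycle inhibitor p27 and is a textbook FOXO target, changed most clearly. Its log2 expression was 4.93, 4.92, 4.20 and 4.90 on control 1 to 4 and 6.07, 6.26, 6.32 and 6.01 on anti-VEGF 1 to 4. No array of a group overlapped with the other, and control 3 was lowest, as for *Depp1* and many other genes of the list. The log2 difference was 1.43 (standard error 0.20, adjusted p = 0.00102 from limma), and 1.63 after quantile normalisation (adjusted p = 0.0188).
*Prdx3*, the gene of a mitochondrial peroxide-removing enzyme, had 6.80, 6.99, 5.67 and 7.20 on the control arrays and 7.997, 8.68, 8.56 and 8.51 on the anti-VEGF arrays. It rose by 1.77 on the log2 scale (standard error 0.31, adjusted p = 0.00169), and by 1.02 after quantile normalisation (adjusted p = 0.0275). These groups did not overlap either.
Further genes that rose were *Cdkn1a*, which encodes the inhibitor p21 (1.56, adjusted p = 0.00522), *Spry2*, an antagonist of growth factor signals (0.92), *Irs2*, an adaptor of the insulin receptor (0.93), and *Cat*, the gene of catalase (1.30). Each of these lost its call after quantile normalisation, with log2 differences of 0.72, 0.36, 0.10 and 0.63, and for *Irs2* the sign turned after cyclic loess (-0.12). The 2 genes that fell were *Pck1*, which encodes an enzyme of glucose synthesis (-0.88, adjusted p = 0.0034), and *Fasl*, the gene of a death ligand of T cells (-1.02, adjusted p = 0.0273). *Fasl* was named after its value was seen. It passed the threshold only while all arrays other than anti-VEGF 1 and control 4 were kept, with an adjusted p of up to 0.0732 otherwise, and after quantile normalisation its difference was -0.13.
After quantile normalisation 5 of the 28 rose and 3 fell, where 7.4% and 4.41% of all genes did. The 5 that rose had risen before, *Cdkn1b*, *Prdx3*, *Cxcr4*, *Angpt2* and *Ddb1*, and the 3 that then fell, *Gadd45a*, *Gadd45b* and *Klf15*, had not been called. After cyclic loess 5 rose and 4 fell, where 11.3% and 9.49% of all genes did.

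**Figure D3:**
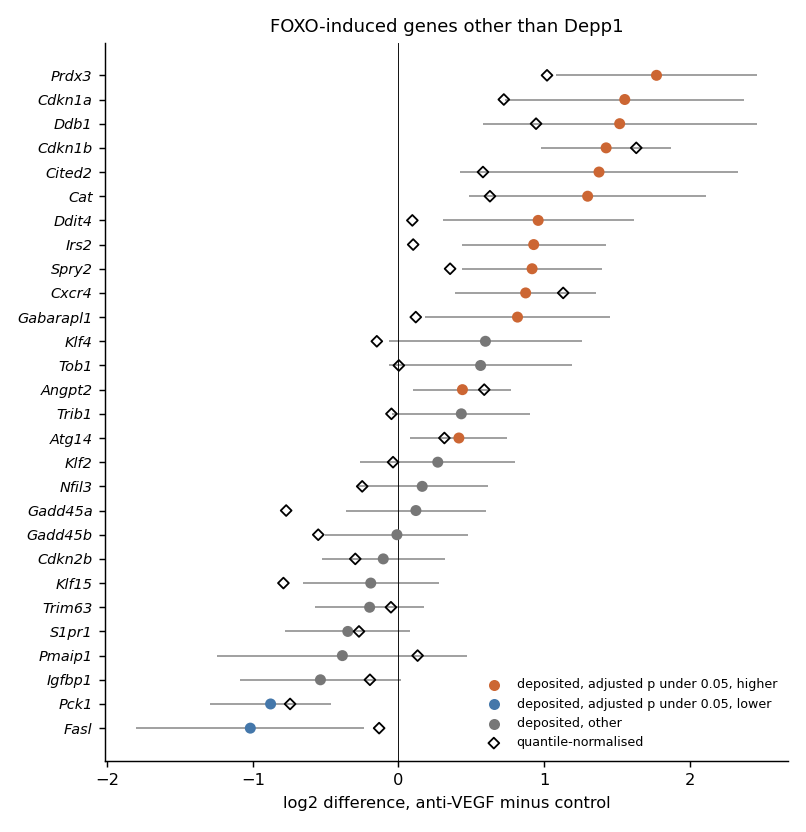
Log2 difference between anti-VEGF and control tumours for 28 measured FOXO-induced genes as deposited (circles, with 95% confidence intervals from limma) and after quantile normalisation (diamonds). Cdkn1b is the gene of this list with the largest value after quantile normalisation, 1.63, and many others move towards 0.

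Of the FOXO factors themselves only *Foxo6* was among the genes analysed here. It had 5.47, 5.02, 5.49 and 6.01 on the control arrays and 5.59, 5.22, 5.33 and 5.28 on the anti-VEGF arrays. The groups overlapped, with control arrays both lowest and highest, and the difference was -0.14 (adjusted p = 0.562 from limma). Genes of the kinases and partners that act on FOXO proteins were mostly higher. Of 58 written, 15 were measured. Of these 11 rose, 0 fell (0 also at an unadjusted p under 0.05) and 4 did not pass, with a median of 0.82. The brightest tertile, where 51.3% of genes rose against 19.1% of all genes, held 12 of the 15. Without anti-VEGF 3 or anti-VEGF 4, 7 rose, and without control 2, 1 fell.
*Pik3r1* and *Pik3cb*, which encode a regulatory and a catalytic subunit of PI3K, rose by 1.23 (adjusted p = 0.00375) and 1.18 (adjusted p = 0.00629). *Mtor*, the gene of a growth kinase, rose by 1.10 (adjusted p = 0.00563), *Ywhaz*, a 14-3-3 gene, by 1.10 (0.00301), and *Crebbp*, which encodes an acetyltransferase that modifies FOXO proteins, by 1.51 (0.00259). After cyclic loess 3 of the 15 rose, where 11.3% of all genes did. After quantile normalisation 0 of the 15 were called by limma, where 7.4% of all genes rose and 4.41% fell. At an unadjusted p under 0.05, 5 were then higher and 1 lower. The values were then 0.44 for *Pik3r1*, 0.88 for *Pik3cb*, 0.41 for *Mtor*, 0.32 for *Ywhaz* and 0.63 for *Crebbp*.

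Peroxide removal and autophagy are the processes in which the DEPP1 protein has been placed. Of 48 genes of peroxisomes and peroxide removal 14 were measured, 8 rose (57.1%), 0 fell (0 also at an unadjusted p under 0.05) and 6 did not pass, with a median of 0.88. Of the 14, 11 were in the brightest tertile, where 51.3% of genes rose, against 19.1% of all genes. *Gclc*, which encodes the rate-limiting enzyme of glutathione synthesis, had the difference closest to that of *Depp1* among the named genes of this list. Its log2 expression was 6.11, 6.58, 5.12 and 7.10 on control 1 to 4 and 8.53, 8.63, 8.78 and 8.88 on anti-VEGF 1 to 4. Control 3 was lowest and control 4 the highest control, as for *Depp1*, and the groups were apart. The same held for *Prdx3*, *Prdx4* and *Txn1* of this list, so it was not particular to *Gclc*. It rose by 2.48 (standard error 0.35, adjusted p = 0.00102 from limma), and by 1.96 after quantile normalisation (adjusted p = 0.0216).
The thioredoxin gene *Txn1* rose by 1.26 (adjusted p = 0.00624), and by 0.61 after quantile normalisation (0.0448). *Gpx8* and *Prdx4*, which encode peroxidases of the endoplasmic reticulum, rose by 1.56 (adjusted p = 0.00889) and 1.11 (0.00941), and had 0.76 and 0.36 after quantile normalisation, past no threshold. *Prdx3*, *Txn1* and *Gclc* were the 3 genes called after it, of 14 measured on this list, where 7.4% of all genes rose. *Prdx3* and *Cat* are on the FOXO list as well, which also shares measured genes with the lists of autophagy (*Gabarapl1*, *Atg14*), HIF-induced genes (*Ddit4*), FOXO regulators (*Irs2*), progesterone (*Igfbp1*), adipocytes (*Pck1*) and muscle (*Trim63*).
Of 42 autophagy genes 11 were measured, all of them in the brightest tertile, where 51.3% of genes rose, against 19.1% of all genes. Of the 11, 7 rose (63.6%), 0 fell (0 also at an unadjusted p under 0.05) and 4 did not pass, with a median of 0.74. *Lamp2*, a lysosomal membrane gene, rose by 1.80 (adjusted p = 0.00155), *Uvrag*, a partner of the lipid kinase that starts autophagosomes, by 1.22 (0.00122), and *Atg4b*, whose protease trims the LC3 proteins, by 0.96 (0.00227). *Atg5*, part of the complex that attaches LC3 to membranes, rose by 0.74 (0.0111), *Pik3r4*, a subunit of the lipid kinase, by 0.61 (0.0177) and *Gabarapl1*, an LC3 relative and FOXO target, by 0.82 (0.0279). After quantile normalisation *Lamp2* (0.96, adjusted p = 0.0305) and *Atg4b* (0.79, adjusted p = 0.0239) were still called, and *Gabarapl1* had 0.12 and, after cyclic loess, -0.0011.

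Of 56 genes that low oxygen induces through HIF factors, 21 were measured, 14 rose (66.7%), 1 fell and 6 did not pass, with a median of 0.64. Of the 21, 17 were in the brightest tertile, where 51.3% of genes rose, against 19.1% of all genes. After quantile normalisation 5 of the 21 rose and after cyclic loess 4, and 0 fell in either (2 were lower at an unadjusted p under 0.05 in both). In these settings 7.4% and 11.3% of all genes rose and 4.41% and 9.49% fell. *Plod2*, a collagen-modifying enzyme gene, rose by 1.54 (standard error 0.21, adjusted p = 0.000972 from limma), and by 1.05 after quantile normalisation (adjusted p = 0.0267). *P4ha1*, which encodes a subunit of a collagen hydroxylase, rose by 1.19 (adjusted p = 0.0027), with 0.44 after quantile normalisation. With a smaller p than *P4ha1*, *Kdm3a* rose by 1.685 (adjusted p = 0.000656 from limma), *Ero1a* by 1.89 (0.00132), *Pgk1* by 1.20 (0.00163) and *Slc2a1* by 1.485 (0.00201). After quantile normalisation *Kdm3a* (1.36, adjusted p = 0.0148), *Ero1a* (1.05, 0.0174) and *Slc2a1* (0.71, 0.0216) were still called. *Pgk1* was then not called (0.50, 0.0861), and *Slc2a1* was not after cyclic loess (0.44, 0.0698). The gene that fell was *Epo*, the red cell growth factor, named after its value was seen (-0.49, adjusted p = 0.041), and it had -0.15 after quantile normalisation. Leaving out any array other than anti-VEGF 1 or control 4 ended this call.
Genes of the response to progesterone and glucocorticoids did not move 1 way. Of 32 written, 20 were measured, 4 rose, 5 fell and 11 did not pass, with a median of -0.023. For comparison, 19.1% of all genes rose and 46.6% fell. The brightest tertile, where 51.3% of genes rose and 4.55% fell, held 10 of the 20. The dimmest tertile, where 90.3% fell, held 3. *Dusp1*, a phosphatase gene that glucocorticoids raise, rose by 1.53 (adjusted p = 0.00202), and by 0.80 after quantile normalisation (adjusted p = 0.0381). *Per1*, a clock gene, rose by 0.99 (adjusted p = 0.0113) and the metallothionein gene *Mt2* by 0.74 (0.0171), the latter with 1.01 after quantile normalisation (adjusted p = 0.0302) and -0.23 after cyclic loess. The decidual gene *Prl8a2* fell by 1.33 (adjusted p = 0.00114), *Sult1d1*, a sulphotransferase gene, by 1.72 (0.00185), and *Ihh*, a signal of the uterine lining that progesterone raises, by 0.89 (0.0133). After quantile normalisation the values were 0.32 for *Per1*, -0.17 for *Prl8a2*, -0.63 for *Sult1d1* and -0.73 for *Ihh*, and none of these 4 was called (adjusted p 0.127 to 0.426). The progesterone receptor gene *Pgr*, named after its value was seen, fell by 0.79 (adjusted p = 0.0178). It is dim, with a mean of 4.33 in control tumours, and had -0.090 after quantile normalisation and 0.0030 after cyclic loess.

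Cell types known to carry *Depp1* were followed by their marker genes. Of 23 measured endothelial markers 1 rose (4.35%) and 6 fell (26.1%), where 19.1% of all genes rose and 46.6% fell. The mean of the list lay between 5.17 and 5.49 on the control arrays and between 5.03 and 5.31 on the anti-VEGF arrays. The 1 that rose was *Lyve1*, known from lymphatic vessels and from macrophages (1.31, adjusted p = 0.00854 from limma), and it was named after its value was seen. Of 16 adipocyte markers 3 rose (18.8%) and 10 fell (62.5%), with list means of 5.02 to 5.38 and of 4.76 to 4.97. The brightest tertile, where 51.3% of genes rose and 4.55% fell, held 9 of the 23 endothelial and 4 of the 16 adipocyte markers. After quantile normalisation 0 endothelial markers rose and 1 fell (0 and 3 at an unadjusted p under 0.05), and 0 adipocyte markers were called (1 higher and 3 lower). In that setting 7.4% of all genes rose and 4.41% fell. The means of the endothelial list overlapped between the groups.
Of the other lists some moved in both directions and some in only 1. Of 9 pericyte markers 2 rose and 2 fell. Of 16 markers of granulocytes and monocytes 10 rose and 2 fell, with list means of 5.29 to 5.88 on control and 6.15 to 6.66 on anti-VEGF arrays. Of 12 macrophage markers 8 rose and 0 fell (0 also at an unadjusted p under 0.05), with 6.51 to 7.54 and 7.79 to 8.31. Of these lists 10 of 16 and 11 of 12 genes were in the brightest tertile, where 51.3% of genes rose. After quantile normalisation 5 of the 16 granulocyte and monocyte markers and 1 of the 12 macrophage markers rose, where 7.4% of all genes did. Of 6 fibroblast markers 2 rose and 1 fell. Among pancreatic acinar markers 19 of 19 fell. The mean of that list was 9.56 to 11.3 on control arrays and 9.85, 4.37, 4.74 and 6.85 on anti-VEGF 1 to 4, while *Depp1* stood at 7.75, 7.94, 8.50 and 7.81. In the other lists 8 of 15 muscle markers fell and 1 rose, and 6 of 13 keratinocyte, 6 of 9 T and NK cell, 8 of 9 hepatocyte and 4 of 4 erythroid markers fell and 0 rose by limma, also at an unadjusted p under 0.05. Of all genes 19.1% rose and 46.6% fell. In the dimmest tertile, which held 6 of the 9 hepatocyte and 4 of the 9 T and NK cell markers, 90.3% fell. The part of these cell types in the level of *Depp1* was not tested.

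The genes whose profile was most like that of *Depp1* were ranked by Pearson r over the 8 arrays. The arrays form separate groups, so that r mixes the difference between treatments with the spread within them. It serves as a measure of likeness here and is given with no test. The 10 highest ran from 0.997 to 0.993. They were *Ppme1*, which encodes a methylesterase of the phosphatase PP2A, *Entpd3*, an enzyme gene that breaks down nucleotides outside the cell, *Prpsap1*, a partner of the enzyme that starts nucleotide synthesis, *Ndst2*, a heparan sulphate enzyme gene, and *Aldh9a1*, an aldehyde dehydrogenase gene. The others were *Rab3ip*, an activator of vesicle GTPases, *Araf*, a RAF kinase gene, *Ubac2*, a gene of the endoplasmic reticulum, *Acaa2*, which encodes a mitochondrial enzyme of fatty acid breakdown, and *Tbcd*, a tubulin folding cofactor gene. None of the 10 was on the FOXO list.
In 3 of the 10, *Ppme1*, *Entpd3* and *Araf*, the arrays stood in the same order as for *Depp1*, and in the other 7 nearly so (Spearman rho 0.976). *Ppme1* had 6.82, 6.58, 5.90 and 7.29 on control 1 to 4 and 7.69, 7.88, 7.96 and 7.76 on anti-VEGF 1 to 4. Control 3 was lowest, control 4 highest of its group, and anti-VEGF 3 highest of all, as for *Depp1*. *Entpd3* had 5.36, 5.27, 5.04 and 5.46 and then 5.67, 5.72, 5.80 and 5.67. The log2 differences of the 10 lay between 0.43 for *Entpd3* and 1.35 for *Aldh9a1*, against 2.58 for *Depp1*.
Such likeness was common. Of 11666 other genes 1631 had an r above 0.9 and 1578 one below -0.9, and 1267 of the latter were in the dimmest tertile. Of the genes in the brightest tertile, 39.8% were above 0.9, and 9 of the 28 FOXO-induced genes were. The 8 arrays stood in exactly the same order as for *Depp1* in 61 genes. After quantile normalisation 631 genes (5.41%) were above 0.9, and 4 of the 10 were again among the 10 highest, *Ndst2*, *Aldh9a1*, *Ubac2* and *Acaa2*. After cyclic loess, tried after the data were seen, 310 genes (2.66%) were above 0.9, and 0 of the 10 were among the 10 highest.

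**Figure D4:**
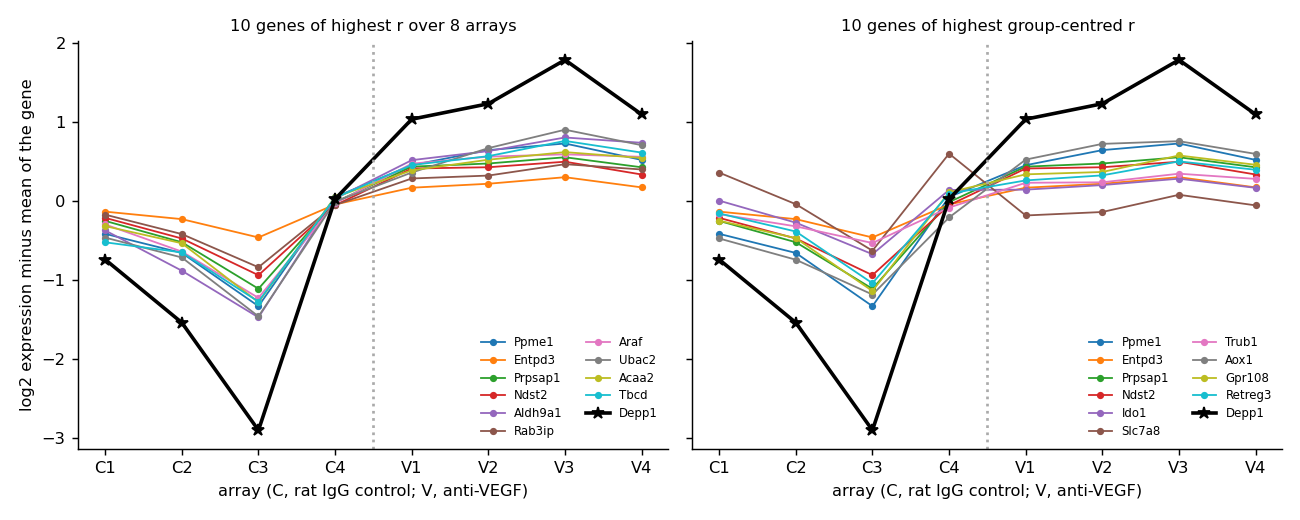
Log2 expression minus the mean of the gene on control arrays C1 to C4 and anti-VEGF arrays V1 to V4 for Depp1 (black) and the 10 genes of highest Pearson r with it over 8 arrays (left) or of highest r of the deviations from the group means (right). Lines join the values of 1 gene, and Depp1 covers a wider range than each of the genes shown.

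Within the groups the ranking was partly other. With each group centred on its mean, the 10 highest ran from 0.993 to 0.983, and 4 genes were on both lists, *Entpd3*, *Ppme1*, *Prpsap1* and *Ndst2*. The standard deviation of *Depp1* was 1.25 in control and 0.34 in anti-VEGF tumours, so this r weighs the control arrays most. The other 6 were *Ido1*, which encodes a tryptophan-degrading enzyme, *Slc7a8*, an amino acid transporter gene, *Trub1*, a pseudouridine synthase gene, *Aox1*, an aldehyde oxidase gene, *Gpr108*, a gene of a Golgi membrane protein, and *Retreg3*, a receptor gene for autophagy of the endoplasmic reticulum. *Slc7a8* followed *Depp1* within the groups and not between them, in the values as deposited. It had 6.93, 6.53, 5.94 and 7.17 on control 1 to 4 and 6.38, 6.43, 6.65 and 6.51 on anti-VEGF 1 to 4. Its anti-VEGF values lay within the range of the control values, its log2 difference was -0.15, and its r over the 8 arrays 0.33. After quantile normalisation the difference was -0.73 and r -0.54, and after cyclic loess -0.77 and -0.64, opposite in sign to *Depp1*. *Aox1* had 5.71, 5.44, 4.999 and 5.98 and then 6.71, 6.91, 6.94 and 6.78, with a difference of 1.30, and 1.09 after quantile normalisation. For *Retreg3* the difference of 0.74 was -0.0069 after quantile normalisation.
Of all other genes 22.6% had a group-centred r above 0.7, and 59.1% of those in the brightest tertile did. The count was 14 of 28 for FOXO-induced genes, 12 of 21 for HIF-induced genes, 8 of 14 for peroxide removal, 7 of 11 for autophagy and 9 of 15 for the kinases and partners of FOXO proteins. These shares are near that of bright genes as a whole.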

How the data were processed

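RNA of 8 HM-1 tumours, 4 a group, was hybridised to Affymetrix Mouse Transcriptome Arrays, each on an array of its own. The values are on the log2 scale, and the authors obtained them with the robust multi-array average method (background correction, quantile normalisation of probes, summary per probe set). RMA and Transcriptome Analysis Console are the tools in the submitters' processing notes. Arrays have no read depth, and their number limits the precision. Nothing says that the tumours came from separate batches of cells, so that p-values cover the spread between these 8 tumours.

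Of 13266 probe sets deposited, 11743 had 1 symbol in the platform annotation, 800 several and 723 none. Those with 1 symbol were used, by the probe set of the highest mean, which gave 11667 genes. All genes here means these 11667, and a listed gene outside them is counted as not measured. Whether the 13266 are all probe sets of the array or a selected part was not examined. RefSeq tables gave gene order, strands and the upstream sequence. The file holds no genome build.

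All genes were fitted with limma 3.58.1 in R 4.3.3 (lmFit and eBayes, treatment as the only term), with Benjamini-Hochberg adjustment over all genes and a threshold of 0.05. The fit was tested on simulated data. No p is given for *Depp1* or for genes chosen by likeness to it. The 6 pathway lists and 12 marker lists cover FOXO-induced genes, FOXO regulators, peroxide removal, autophagy, HIF-induced genes, the progesterone and glucocorticoid response and the cell types named in the report. *Depp1* and these lists were chosen with earlier results of these data known. Named genes followed a rule: the 10 of highest r with *Depp1* over all arrays and within groups, the FOXO factors, up to 6 genes of smallest p per pathway list, and 3 neighbours on each side. The text names part of these and marks those chosen after their values were seen; marker genes are given as counts. Alternatives were quantile normalisation, median centring, cyclic loess, leaving out the lowest tertile by level, trend and robust variance, array weights, a replicate block, averages over a gene's probe sets and the removal of single arrays. Python 3.11.15 and matplotlib 3.10.9 were used for plots.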

Additional observations from a re-analysis of the deposited data

Results flagged for a closer look

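*Depp1* and 56 of the other genes named in the text were checked in both groups for 1 array far from the other 3. The rest, among them *Cxcr4*, *Angpt2*, *Ddb1*, *Gadd45a*, *Gadd45b*, *Klf15*, *Epo* and *Kdm3a*, were not checked. An array counted when its gap to the nearest, as a share of the range of the group, passed Dixon's critical value for 4 values. Of 114 groups 14 had such an array, and chance alone gives about 1 in 20. *Depp1* had none. Control 3 stood low for *Cdkn1b* (4.20), *Cdkn1a* (6.48), *Txn1* (7.91) and *Hnrnpf* (7.71), on the array where *Depp1* was lowest too. Anti-VEGF 1 stood low for *Cdkn1a* (8.45), *Lamp2* (8.46), *Cat* (6.69), *Dusp1* (7.73) and *Hnrnpf* (8.98) and high for *Pck1* (4.64), among the anti-VEGF arrays. This array also had the highest acinar markers of its group, with a mean of 9.85. Anti-VEGF 3 stood high for *Rassf4* (6.17) and *Pik3r4* (6.61), control 4 low for *Tmem72* (4.30) and control 2 low for *Mt2* (10.7).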

How the results depend on the processing

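The difference of *Depp1* kept its direction under all 16 alternatives, from 1.90 after cyclic loess to 3.02 without control 4, and moved by less than the pooled standard deviation of 0.92 each time. With single arrays left out it ran from 2.04 to 3.02. Counts of calls depended on how the arrays were scaled, and the cause was not tested. With quantile normalisation 863 genes rose and 515 fell, with cyclic loess 1322 and 1107, and with median centring 3665 and 2979. Without the lowest tertile by level 1870 fell, since fewer genes were tested. FOXO-induced genes that rose were 5 with quantile normalisation and 5 with cyclic loess, and those that fell were 4 with cyclic loess and 1 with median centring or without the lowest tertile by level. Regulators of FOXO that rose were 0 with quantile normalisation (5 at an unadjusted p under 0.05) and 3 with cyclic loess. HIF-induced genes that rose were 5 and 4, and those that fell were 0 in both (2 at an unadjusted p under 0.05), with median centring and with a replicate block. With single arrays left out 1697 to 2419 genes rose and 4273 to 5799 fell. FOXO-induced genes then gave 10 to 14 that rose and 1 to 2 that fell, regulators 7 to 11 and 0 to 1, and HIF-induced genes 12 to 16 and 0 to 1.
Of the 10 genes most like *Depp1*, 4 were again among the 10 highest with quantile normalisation, 4 with group-centred r, 3 with Spearman rho, where 61 genes tie at the top, 0 with cyclic loess, added after seeing the data, and 3 to 8 with single arrays left out, the fewest without control 2 or control 3 (3).
Signs were compared for the 56 other genes checked above for an array far from the rest, and not for further genes named, such as *Gadd45a*. Among the 56, the sign turned with cyclic loess for *Tmem72* (0.13), *Olfr214* (0.55), *Hnrnpf* (-0.44), *Retreg3* (-0.061), *Irs2* (-0.12), *Pgr* (0.0030), *Mt2* (-0.23) and *Gabarapl1* (-0.0011). It turned with quantile normalisation for *Tmem72* (0.11), *Olfr214* (0.58), *Hnrnpf* (-0.22) and *Retreg3* (-0.0069), with median centring for *Olfr214* (0.046), *Slc7a8* (0.25) and *Foxo6* (0.25), and without control 4 for *Slc7a8* (0.029) and *Foxo6* (0.027), which ran from -0.38 and -0.30 with other single arrays left out. Of the 56, 50 were called, where 19.1% of all genes rose and 46.6% fell. Many of the 56 were picked by likeness to *Depp1* or by smallest p, so this count is partly set by the choice. Quantile normalisation ended the call of 39 and cyclic loess of 29.
Equal replicate numbers were not treated as pairing, since deviations of such arrays from their group means correlated at 0.190, 0.126, -0.0367 and 0.163. With the replicate block 2159 genes rose and 5422 fell, against 2232 and 5437.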
